A study of Homo sapiens
Mus musculus and Homo sapiens with 2 samples.

Results

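The HOX genes of 3 cell lines were described: every protein-coding gene whose symbol is HOX followed by the cluster letter A, B, C or D and a number, in the deposited human annotation, and the mouse genes of the same form. The rule uses names alone. It found 39 human genes in 40 rows, because HOXC4 is listed under 2 identifiers (ENSG00000198353.6 and ENSG00000273266.1), and 39 mouse genes. The A549 annotation holds 19128 protein-coding rows, the human part of the mixture's 22705 and the mouse part 21973. With a minimum of 20 counts summed over all cells of a line, 31 human rows were measured in A549, 34 in HEK293T, and 20 mouse genes in NIH/3T3. No human row was without a count in A549, 3 were in HEK293T, and 15 mouse genes were in NIH/3T3.

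RNA was counted in single cells by sci-fate, in which cells take up 4-thiouridine (S4U), a uridine analog, and iodoacetamide then alters the S4U bases so that RNA made during the labelling can be told from older RNA. A549, a human lung adenocarcinoma line, was kept in 100 nM of the glucocorticoid receptor agonist dexamethasone for 0, 2, 4, 6, 8 or 10 h. Control cells (0 h) received the same volume of ethanol, and all A549 cells received 200 µM S4U in the last 2 h. HEK293T, a human embryonic kidney line carrying the SV40 large T antigen, and NIH/3T3, a mouse embryonic fibroblast line, were grown as a mixture and labelled with 200 µM S4U for 6 h. The annotation splits the mixture into cells with both S4U and iodoacetamide, S4U only, iodoacetamide only, or neither. A further label of A549 gives the dose as 101 nM. Dexamethasone also stands among the labels of the mixture, although the protocol names it for A549. Each time and each labelling group of a line is called a culture here. There was 1 culture of each and 1 library per sample, so a line and its library cannot be told apart, and cells are not replicates.

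HOX genes encode transcription factors that give cells along the body axis and in limbs their position. In mammals they lie in 4 clusters, and within a cluster the genes keep the order of their position numbers. Low numbers are active towards the head and early, and high numbers towards the tail, the limb ends and the genital tract. Adult cells and cell lines often keep a HOX pattern of their tissue of origin. The proteins bind DNA with a homeodomain, often beside cofactors of the PBX, MEIS and PKNOX families. Polycomb proteins keep silent HOX genes off and trithorax proteins keep active ones on, and retinoic acid switches on the low-numbered genes in embryos.

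In GENCODE v29 the HOXA cluster lies on chromosome 7, HOXB on chromosome 17, HOXC on chromosome 12 and HOXD on chromosome 2. All 4 clusters run in the order of their position numbers, with 11, 10, 9 and 9 genes. The homeobox, the 180 bases that encode the 60 residues of the homeodomain, is shown for HOXC13, which rose under dexamethasone in new RNA, and for the genes with the highest level per length in A549 (HOXB7) and in HEK293T (HOXD10). Sequences are from GENCODE v29 transcripts, written 5′ to 3′ on the coding strand, and capitals mark the 6 codons from codon 48, the conserved core of the helix that contacts DNA.

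HOXC13: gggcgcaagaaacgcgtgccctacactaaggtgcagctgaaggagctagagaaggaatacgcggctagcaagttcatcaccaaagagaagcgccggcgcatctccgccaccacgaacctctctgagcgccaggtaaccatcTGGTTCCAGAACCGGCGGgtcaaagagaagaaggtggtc
HOXB7: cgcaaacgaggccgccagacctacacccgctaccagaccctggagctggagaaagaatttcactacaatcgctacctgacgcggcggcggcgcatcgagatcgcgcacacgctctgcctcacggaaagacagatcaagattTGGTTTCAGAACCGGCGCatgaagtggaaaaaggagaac
HOXD10: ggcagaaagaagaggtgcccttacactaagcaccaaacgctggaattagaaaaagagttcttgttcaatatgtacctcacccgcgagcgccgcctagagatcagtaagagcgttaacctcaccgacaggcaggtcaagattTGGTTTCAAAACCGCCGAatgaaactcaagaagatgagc

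HOXB7 and HOXC13 shared 50.6% of homeobox bases. Over all 741 pairs of the 39 genes the identity ran from 47.8% to 91.1% with a median of 61.1%. Genes of the same position number in different clusters had a median of 81.7%, and other pairs 60.6%. The longest identical run between any 2 homeoboxes was 51 bases. Whole transcripts shared exact stretches of at least 50 bases in 8 pairs, the longest being 484 bases between HOXC4 and HOXC6, 457 between HOXD10 and HOXD11, and 434 between HOXB3 and HOXB6. Counts of these pairs are uncertain where a read falls in the shared stretch.

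Whole counts summed to 216513736 over 7404 A549 cells (28870594 to 43084614 per culture), 27656301 over 2952 HEK293T cells (4931680 to 9631814) and 25509328 over 3089 NIH/3T3 cells (3085966 to 9136422). Levels are CPM (each gene's counts scaled to a common library total, within the line's own species), with exact Poisson 95% intervals that cover counting error only. As a check of the labels, 15 A549 genes such as AKR1B10 and KRT8 summed to 31330 CPM in A549 and 85.6 CPM in HEK293T. A list of 12 HEK293T genes such as NEFM and PAX2 summed to 153.6 CPM in A549 and 1295 CPM in HEK293T. A list of 15 fibroblast genes summed to 19173 CPM in NIH/3T3, of which Vim had 7150 and Col1a2 4349 CPM. In NIH/3T3 the fibroblast genes Thy1, Dcn and Postn had 13, 6 and 4 counts and Lum none, so 11 of the 15 reached 20 counts. Leukocyte and endothelial markers summed to at most 2.94 CPM in any line.

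HOX RNA was scarcer in A549 than in HEK293T, and the clusters held different shares of it in each line. All 4 clusters had counts in every line. All members together made up 172.8 CPM in A549 (161.4 to 183.6 over the 6 cultures), 1029 CPM in HEK293T (867 to 1116 over 4) and 319 CPM in NIH/3T3 (284 to 340 over 4). In A549, HOXB held 45.8% of HOX counts, HOXC 28.7%, HOXA 21.6% and HOXD 3.88%. In HEK293T, HOXA held 39.4%, HOXD 24.3%, HOXB 22.2% and HOXC 14.1%. In NIH/3T3, Hoxa held 66.8%, Hoxd 14.9%, Hoxb 12.2% and Hoxc 6.04%. These shares are of counts and are not corrected for transcript length. The cultures of A549 and HEK293T did not overlap for any of the 4 clusters, and HEK293T was higher in each. HOXB, with the largest share in A549, had 79.1 CPM there and 229 CPM in HEK293T. The HOXD cluster was the farthest apart, with 5.72 to 8.08 CPM in A549 and 228 to 270 CPM in HEK293T.

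Genes at positions 9 to 13, the tail-side end of each cluster, held 35.3% of HOX counts in A549, 54.5% in HEK293T and 8.78% in NIH/3T3. The split differed by cluster. HOXC counts of A549 came mostly from positions 9 to 13, with 37.7 CPM against 12.0 CPM for positions 1 to 8. HOXB counts of A549 came from positions 1 to 8, with 72.3 CPM against 6.74 CPM for HOXB9 and HOXB13. HOXD counts of HEK293T came from positions 9 to 13, with 217 CPM against 32.8 CPM. In NIH/3T3 the Hoxa cluster had 213 CPM at positions 1 to 8 and 0.118 CPM (3 counts) at positions 9 to 13.

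**Figure D1:**
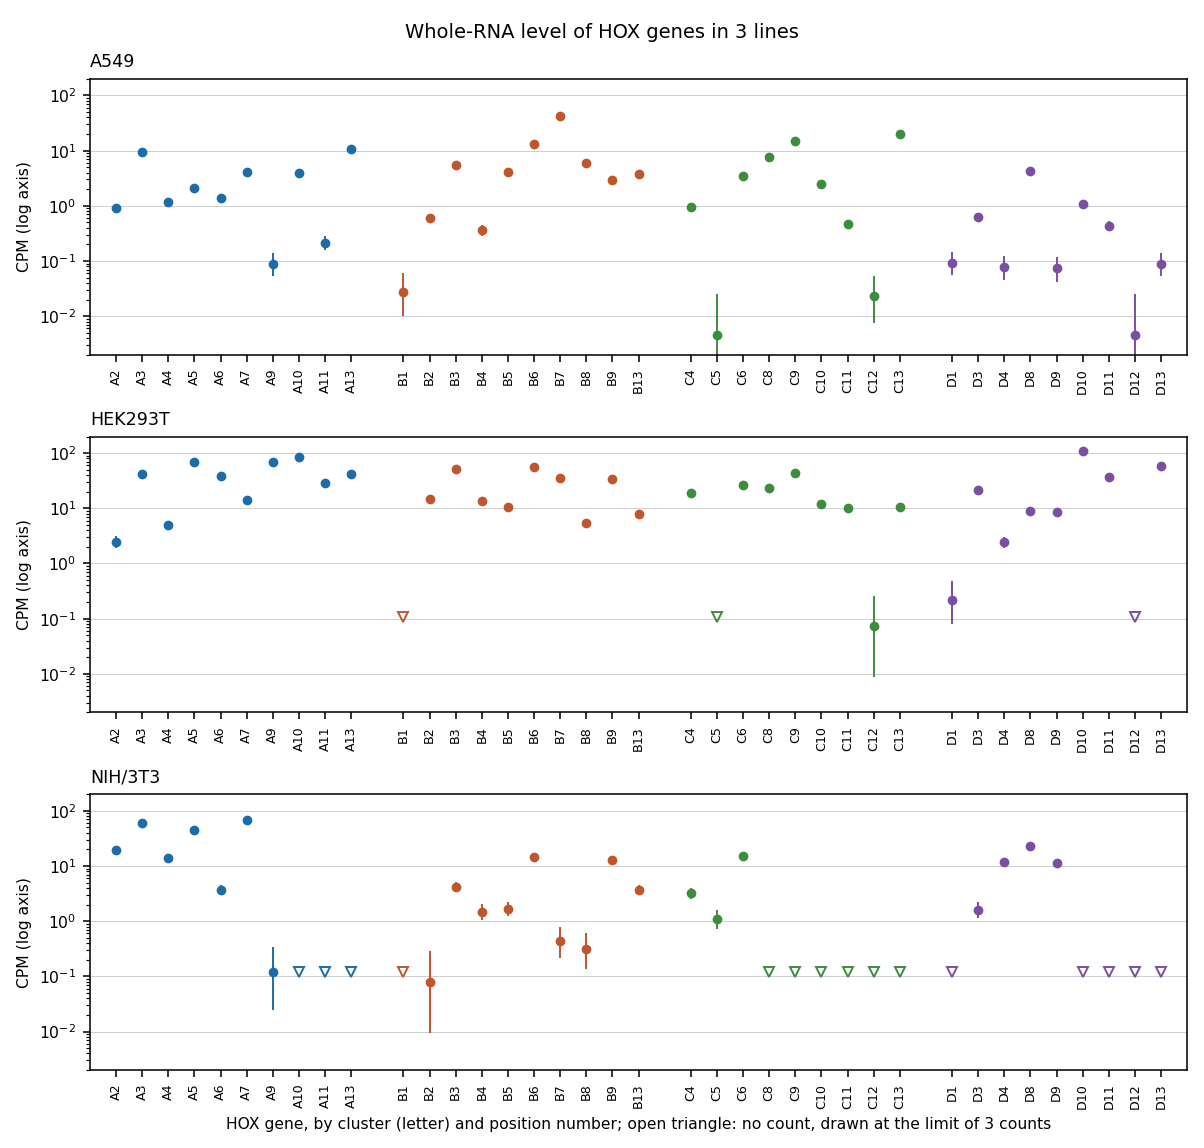
Whole-RNA level of HOX genes (CPM, log axis) by cluster and position in A549, HEK293T and NIH/3T3. Points are the level over all cells of a line, bars exact 95% Poisson intervals, and open triangles genes without a count, drawn at the level of 3 counts. In A549 HOXB7 is highest at 43.0 CPM, in HEK293T HOXD10 at 112 CPM, and in NIH/3T3 no gene beyond position 9 is counted in the A, C and D clusters.

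To compare genes with one another, human levels were divided by the exonic length of the gene in kilobases. Whether counts of this method rise with gene length was not tested. If they do not, the division sets long genes too low. In A549 the highest levels per kilobase were those of HOXB7 with 28.2 CPM per kb, HOXC9 with 8.85, HOXC13 with 8.19, HOXB6 with 4.97 and HOXC8 with 4.02. HOXB7, a trunk patterning gene, thus stood at 3 or more times the level per kilobase of any other member. By CPM alone HOXB7 had 43.0, and HOXC13 was next with 19.9. In HEK293T the highest levels per kilobase were HOXD10 with 41.4 CPM per kb, HOXA5 with 40.4, HOXA6 with 30.5, HOXD13 with 26.6 and HOXC9 with 26.0. The order of HOXD10 and HOXA5 there is not settled, since HOXA5 ran from 40.7 to 84.9 CPM over the cultures. By CPM alone HOXD10 was again highest in HEK293T with 112, followed by HOXA10 with 85.2 and HOXA9 with 69.4. HOXA6 had 39.2 CPM. Across the 30 genes with at least 20 counts in both lines, log2 CPM correlated weakly between A549 and HEK293T (Pearson 0.17, Spearman 0.19, a description over genes that share each line's library).

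The levels of A549 were set against those of HEK293T gene by gene. Of 35 rows with at least 20 counts in either line, none was 4-fold or more higher in A549 and 22 were 4-fold or more lower. Of all 26818 genes with that minimum, 7.60% were that much higher and 12.3% that much lower. The median log2 fold over the HOX rows was -2.94, against -0.28 over all genes. With the 0 h culture of A549 and the fully labelled HEK293T cells alone, 18 of 33 rows were 4-fold or more lower and none higher, against 12.8% and 7.75% of all 18097 genes. Of 33 rows with a value there, 13 had folds that moved by more than 1.5 times. HOXA3, HOXA4 and HOXB6 fell under the 4-fold limit there, and HOXD4 had no value. With a 2-fold limit, 32 of 35 were lower and none higher, against 29.5% and 15.7% of all genes. There is 1 library of each line, so these folds have no replicate check, and their intervals cover counting error only.

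In the HOXA cluster the gap was small at the head-side end and wide at position 9. HOXA2, which patterns the hindbrain and second pharyngeal arch, had 0.928 CPM in A549 and 2.46 CPM in HEK293T. HOXA3, which acts in the third pharyngeal arch and thymus of mice, had 9.52 CPM in A549 (7.47 to 17.9) and 41.8 CPM in HEK293T (35.0 to 47.2). The cultures of the 2 lines did not overlap for either gene. HOXA4 had 1.16 CPM in A549 and 4.92 CPM in HEK293T. HOXA5, which is needed for lung and airway development in mice, had 2.11 CPM in A549 (1.91 to 2.38) and 69.0 CPM in HEK293T (40.7 to 84.9). HOXA6 had 1.41 CPM in A549 and 39.2 CPM in HEK293T. HOXA5 and HOXA6 were thus 32.7-fold and 27.8-fold higher in HEK293T. HOXA7 had 4.12 CPM in A549 and 14.1 CPM in HEK293T. HOXA9, known for its activation in acute leukaemias, had 0.088 CPM in A549 (19 counts, cultures 0.023 to 0.239 with a median of 0.066). HEK293T had 69.4 CPM of HOXA9, with 63.3, 73.6, 78.5 and 58.8 CPM in the cells with both agents, S4U only, iodoacetamide only and neither. HOXA9 was 791-fold higher in HEK293T (95% interval 505 to 1316). HOXA10, a gene of the uterus and hindlimb, had 3.94 CPM in A549 and 85.2 CPM in HEK293T. HOXA11, of limb and kidney, had 0.212 CPM in A549 and 29.2 CPM in HEK293T. HOXA13, of the limb ends and genital tract, had 10.7 CPM in A549 and 42.0 CPM in HEK293T. In A549 HOXA9 and HOXA11 thus had 19 and 46 counts, while HOXA10 and HOXA13 had 852 and 2324. GENCODE v29 has transcripts of HOXA9 and HOXA10 that overlap on the same strand. With the 0 h culture and fully labelled cells alone, HOXA9 was 265-fold higher in HEK293T, HOXA11 74.8-fold, HOXA5 20.4-fold and HOXA10 14.1-fold. HOXA4, HOXA3 and HOXA2 were then 2.55-fold, 1.96-fold and 1.17-fold higher in HEK293T, all under the 4-fold limit.

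The HOXB cluster held the genes that were closest between the lines. HOXB7 had 44.1, 44.1, 43.1, 43.1, 42.2 and 41.6 CPM in A549 at 0, 2, 4, 6, 8 and 10 h. HEK293T had 39.4, 34.7, 35.3 and 31.5 CPM of HOXB7 in the cells with both agents, S4U only, iodoacetamide only and neither. HOXB7 was 1.22-fold higher in A549 (1.141 to 1.304), and the cultures of the lines did not overlap. HOXB8, which acts in myeloid precursors, had 5.90 CPM in A549 and 5.32 CPM in HEK293T, a ratio of 1.110 whose interval (0.935 to 1.33) includes no difference. HOXB13, a prostate and hindgut gene, had 3.82 CPM in A549 and 7.95 CPM in HEK293T. HOXB5, which acts in lung branching in mice, had 4.04 CPM in A549 and 10.4 CPM in HEK293T. Both lay under the 4-fold limit. HOXB6 had 12.9 CPM in A549 and 57.1 CPM in HEK293T. HOXB3 had 5.44 CPM in A549 and 51.1 CPM in HEK293T. HOXB9 had 2.93 CPM in A549 and 33.6 CPM in HEK293T. These 3 were 4.41-fold, 9.40-fold and 11.5-fold higher in HEK293T. With the 0 h culture and fully labelled cells alone, HOXB6 was 3.75-fold and HOXB3 5.65-fold higher in HEK293T. HOXB2, a hindbrain gene, had 0.605 CPM in A549 and 14.7 CPM in HEK293T, a 24.3-fold gap that was 10.5-fold with those cells alone. HOXB4, which expands blood stem cells, had 0.365 CPM in A549 and 13.5 CPM in HEK293T. HOXB1 had 6 counts in A549 and none in HEK293T, where 3 counts would be 0.108 CPM.

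Among HOXC genes with at least 20 counts A549 exceeded HEK293T only at HOXC13, a gene of hair and nail that controls keratins. HOXC13 had 10.3, 12.6, 20.4, 25.9, 23.5 and 24.2 CPM in A549 at 0, 2, 4, 6, 8 and 10 h. HEK293T had 7.94, 11.8, 11.2 and 11.1 CPM of HOXC13 in the cells with both agents, S4U only, iodoacetamide only and neither. The A549 culture at 0 h lay within the range of the HEK293T cultures, and those from 2 h on lay above HEK293T. Over all cultures the ratio was 1.89 (1.68 to 2.14), and with the 0 h culture and fully labelled cells alone it was 1.304. HOXC9, a trunk gene that shapes spinal motor neurons, had 14.9 CPM in A549 and 43.7 CPM in HEK293T. HOXC8, which acts in the motor neurons of the forelimb, had 7.60 CPM in A549 and 23.5 CPM in HEK293T. Both were about equally far apart, 2.94-fold and 3.09-fold higher in HEK293T. HOXC10 had 2.47 CPM in A549 and 11.8 CPM in HEK293T. HOXC6 had 3.41 CPM in A549 and 26.1 CPM in HEK293T, 7.67-fold higher in HEK293T, or 4.50-fold with the 0 h culture and fully labelled cells alone. HOXC4 under its first identifier had 0.938 CPM in A549 and 19.0 CPM in HEK293T. HOXC6 and HOXC4 share transcript sequence, so how reads were split between them is not known. HOXC11 had 0.462 CPM in A549 and 9.94 CPM in HEK293T. The second HOXC4 identifier (11 counts in A549 and 7 in HEK293T), HOXC5 (1 and 0) and HOXC12 (5 and 2) stayed under 20 counts in both lines.

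The HOXD cluster had little RNA in A549, and most of it was HOXD8. HOXD8 had 4.24 CPM in A549 and 8.89 CPM in HEK293T, a gap of 2.10-fold. HOXD10, of the limb and lumbar spinal cord, had 0.797 to 1.46 CPM in the A549 cultures, with a median of 1.08. HEK293T had 106, 99.8, 115 and 122 CPM of HOXD10 in the cells with both agents, S4U only, iodoacetamide only and neither. HOXD10 was 103-fold higher in HEK293T (89.98 to 117.9). HOXD13, the gene of digit formation, had 0.088 CPM in A549 (19 counts) and 59.6 CPM in HEK293T (51.1 to 66.9 over cultures). HOXD11 had 0.434 CPM in A549 and 37.5 CPM in HEK293T, and shares transcript sequence with HOXD10. HOXD9 had 16 counts (0.074 CPM) in A549 and 8.71 CPM in HEK293T. The tail-side genes HOXD9 to HOXD11 and HOXD13 were thus 86.4-fold to 679-fold higher in HEK293T. With the 0 h culture and fully labelled cells alone, HOXD11 was 53.6-fold, HOXD9 66.3-fold, HOXD10 72.5-fold and HOXD13 342-fold higher in HEK293T. HOXD3 had 0.619 CPM in A549 and 21.3 CPM in HEK293T. HOXD4 had 17 counts in A549 and 2.42 CPM in HEK293T. HOXD1 had 20 counts in A549 and 6 in HEK293T, and its ratio of 0.426 has an interval (0.165 to 1.296) that includes no difference. HOXD12 had 1 count in A549 and none in HEK293T.

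**Figure D2:**
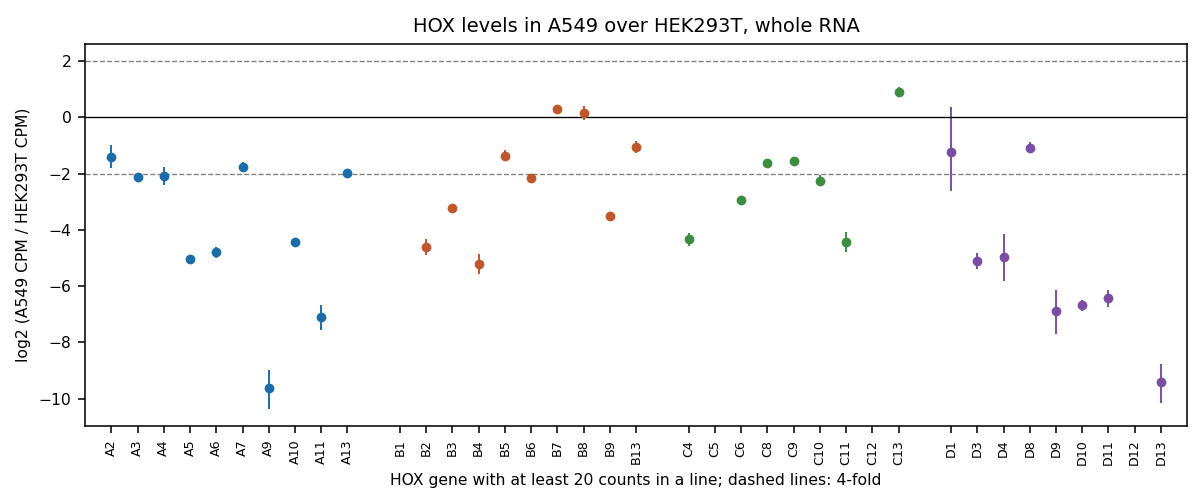
Level in A549 over that in HEK293T (log2 ratio of CPM) for HOX rows with at least 20 counts in either line. Bars are exact 95% intervals of the ratio and dashed lines mark 4-fold. HOXC13, HOXB7 and HOXB8 lie above 0, and HOXA9 and HOXD13 lie lowest at -9.63 and -9.41.

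In NIH/3T3 cells HOX RNA came mostly from genes up to position 9, with Hoxb13 as the exception. Hoxa7 had 58.7, 65.4, 70.8 and 69.1 CPM in the cells with both agents, S4U only, iodoacetamide only and neither. Hoxa3 had 55.7, 66.3, 55.7 and 59.7 CPM in the same order. Hoxa5 had 32.7, 48.3, 44.2 and 44.5 CPM, lowest in the cells with both agents. Other Hoxa genes up to position 7 were Hoxa2 with 19.5 CPM, Hoxa4 with 13.8 and Hoxa6 with 3.65. Hoxa9 had 3 counts, and Hoxa10, Hoxa11 and Hoxa13 had none, which allows up to 0.118 CPM each at 3 counts. In the Hoxb cluster, Hoxb6 had 14.3 CPM, Hoxb9 12.7, Hoxb3 4.19, Hoxb13 3.72, Hoxb5 1.69 and Hoxb4 1.49. Hoxb7 with 11 counts, Hoxb8 with 8, Hoxb2 with 2 and Hoxb1 with none were under the minimum. So the mouse line had few counts of the gene whose human counterpart led in A549. In the Hoxc cluster, Hoxc6 had 15.0 CPM, Hoxc4 3.18 and Hoxc5 1.098, and all 6 genes from Hoxc8 to Hoxc13 had no count. In the Hoxd cluster, Hoxd8 had 22.8 CPM, Hoxd4 11.7, Hoxd9 11.4 and Hoxd3 1.61, and Hoxd1 and the genes from Hoxd10 to Hoxd13 had none. Gene lengths of the mouse were not used, so these genes are not ranked.

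Single cells held few counts of any member. At least 1 HOX count was found in 94.4% of A549 cells (93.8 to 94.9, exact 95% interval), 97.2% of HEK293T cells (96.6 to 97.8) and 83.7% of NIH/3T3 cells (82.3 to 85.0). The median cell held counts of 3 members in A549, 6 in HEK293T and 2 in NIH/3T3, at median totals of 27081, 8326 and 7549 counts. HEK293T cells thus held more members at a lower depth than A549 cells. HOXB7 was counted in 59.7% of A549 cells and 25.3% of HEK293T cells. HOXD10 was counted in 2.66% of A549 cells and 54.3% of HEK293T cells. In mouse cells of the mixture, which cannot express the human genes, HOXD10 was found in 0.032% of cells. Human HOX counts in mouse cells came to 0.214 per 100 counts in HEK293T, against 0.445 per 100 over all human genes. The spread of a member over cells of this depth was not analysed further.

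A new share is the count called new by the authors over the whole count of a gene. It was computed for members with at least 20 whole counts in labelled cells, with exact Clopper-Pearson 95% intervals. Most HOX genes of A549 and of HEK293T had a higher new share than the median gene of their line. After 2 h of S4U the median over 31 rows in A549 was 50.2%, against 26.7% over 16518 protein-coding genes, and 23 of the 31 lay above the median of all genes. After 6 h of S4U the median over 32 members in HEK293T was 76.4%, against 70.6% over 11997 genes. Of the 32, 24 lay above the median of all genes. In NIH/3T3 it was 47.3% over 12 members, against 50.0% over 9037 genes, and 4 members lay above it. Labelling times differ, so shares of A549 and of the mixture are not compared as rates. Cells with iodoacetamide but no S4U had a new share of 1.05% over the HOX members in HEK293T and 0.980% in NIH/3T3. No A549 cells without S4U were analysed here.

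Members of 1 cluster differed widely in new share. In A549 HOXC13, with 68.6% (67.2 to 70.0), was among the highest. The lowest were HOXB9 with 14.04% (11.4 to 17.0) and HOXA7 with 17.2% (14.8 to 19.9). HOXB7, with the most counts of any member, had 20.7% (19.9 to 21.5), with 19.6% to 21.5% over the 6 cultures. In the HOXB cluster of A549 the share was lower towards the tail-side genes. HOXB2, HOXB3 and HOXB4 had 62.6%, 60.8% and 67.1%, HOXB5 and HOXB6 48.5% and 50.2%, and HOXB7, HOXB8, HOXB9 and HOXB13 20.7%, 22.0%, 14.04% and 27.7%. The HOXC cluster gave no such order, with 52.7% for HOXC4, 45.3% for HOXC6, 32.8% for HOXC8, 21.4% for HOXC9, 19.4% for HOXC10, 58.0% for HOXC11 and 68.6% for HOXC13. In the HOXA cluster HOXA3 had 63.0% and its neighbours HOXA2 and HOXA4 31.8% and 21.0%. HOXA5, HOXA6, HOXA10, HOXA11 and HOXA13 had 52.6% to 63.0%. HOXD1 and HOXD3 had 65.0% and 59.7%, HOXD8 36.1%, and HOXD10 and HOXD11 20.4% and 27.7%.

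Across the 29 members measured in both lines the shares of A549 and HEK293T had a Pearson correlation of 0.70 and a Spearman of 0.68, given as a description. HOXA9, not measurable in A549, was highest in HEK293T with 90.1% (86.8 to 92.7), followed by HOXA5 with 88.2% and HOXA13 with 85.2%. HOXD9 with 60.6% (47.8 to 72.4), HOXD11 with 62.1%, HOXC10 with 63.5% and HOXC9 with 63.6% were lowest. HOXB9, lowest in A549, had 67.0% in HEK293T (59.8 to 73.7), under the 76.4% median. In HEK293T HOXB2 to HOXB6 had 75.2% to 82.3%, HOXB7 70.7%, HOXB8 76.3% and HOXB13 75.4%. The order seen along the HOXB cluster in A549 was thus less clear in HEK293T. HOXA13, a tail-side gene, was above the members' median in both lines. Shares of the members ran from 60.6% to 90.1% in HEK293T and from 14.04% to 70.1% in A549. Whether the upper end of the scale narrows differences among members in HEK293T was not tested. In NIH/3T3 Hoxb3 had 72.7% (49.8 to 89.3) on 22 counts and Hoxd9 30.0% (11.9 to 54.3) on 20. Hoxa7 had 34.3% (27.4 to 41.7), with an interval under the 50.0% median of all genes. Hoxa3 and Hoxa5 had 52.3% and 52.5%.

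**Figure D3:**
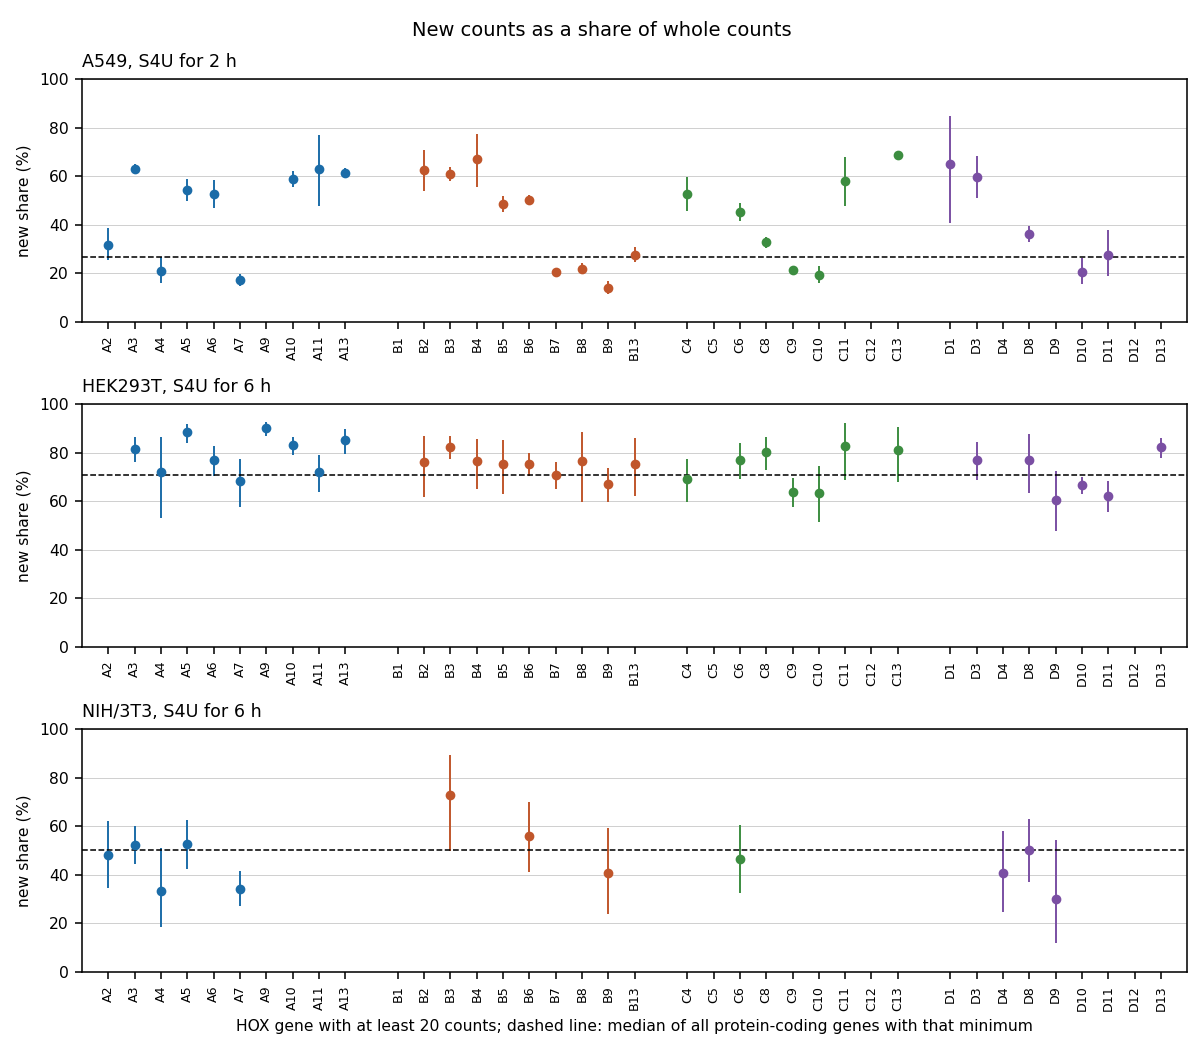
New counts as a percentage of whole counts for HOX genes with at least 20 counts in labelled cells of A549 (2 h of S4U), HEK293T (6 h) and NIH/3T3 (6 h). Bars are exact 95% intervals and the dashed line is the median of all protein-coding genes. In A549 HOXB9 lies lowest at 14.04% and HOXC13 is at 68.6%.

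The times of A549 address the response to dexamethasone. HOXA3 fell in treated cells in whole and new RNA. HOXC8 fell and HOXC13 rose in new RNA, and neither passed the test in whole RNA, where HOXC13 had a log2 change of 1.07 against 1.08 in new RNA. Whether whole and new RNA differ was not tested. HOXB7, the most abundant member, stayed within 41.6 to 44.1 CPM. The 5 treated cultures were tested against the 0 h culture with edgeR's quasi-likelihood test, which assumes that the lone 0 h culture varies like the treated ones. The spread of the treated cultures includes change with time. Benjamini-Hochberg adjustment covered every gene in the fit. In whole RNA 1 of 30 HOX rows passed 0.05, with lower counts (background 0.275% of all genes lower), and none with higher (background 0.603%). At an unadjusted p under 0.05 there were 6 of 30 rows, against 12.8% of all genes, and DESeq2 called 2, against 3.43%. In new RNA 2 of 29 rows passed with lower counts (background 2.18%) and 1 with higher (background 3.82%). The median log2 change was -0.21 over the HOX rows against 0.00 over all genes in whole RNA, and -0.22 against 0.01 in new RNA. Of the rows tested, 8 of 30 were above 0 in whole RNA, against 50.9% of all genes, and 6 of 29 in new RNA, against 51.5%. A row enters the test only with enough counts, and the other members were not tested.

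HOXA3 fell to less than its untreated level within the first 2 h and stayed there. At 0, 2, 4, 6, 8 and 10 h its whole RNA was 17.9, 9.13, 7.52, 8.01, 7.83 and 7.47 CPM. Its new RNA (CPM of new counts) was 53.8, 25.1, 25.1, 23.1, 22.8 and 23.3. Every treated culture lay below the 0 h culture, without overlap of the counting intervals. By edgeR's quasi-likelihood test the log2 change was -1.13 ± 0.12 (SE) in whole RNA, adjusted p = 0.00812, lower in 5 of 5 treated cultures. In new RNA it was -1.10 ± 0.12, with an adjusted p of 0.00071 in the same edgeR test. The call held in all 7 alternatives of each test, with log2 changes from -1.18 to -1.11 in whole RNA and -1.12 to -1.09 in new RNA. Every alternative kept the same lone 0 h culture, so none of them checks that culture. GENCODE v29 has HOXA-AS2 antisense to HOXA3, and the sources used here do not say whether counting used strand. HOXA-AS2 had 8.72, 3.03, 3.92, 3.19, 4.52 and 3.38 CPM of new RNA at the same times. It too fell in new RNA (log2 change -1.21 ± 0.26, adjusted p = 0.0263 in the same edgeR test), a call lost with DESeq2 and without the 6 h culture. Reads of the pair may not be told apart. HOXA3 transcripts also overlap HOXA4, HOXA5 and HOXA6 on the same strand in that annotation.

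The head-side neighbours of HOXA3 had lower values at later times but did not pass. HOXA2 had 1.67, 1.06, 1.04, 0.812, 0.551 and 0.563 CPM of whole RNA at 0, 2, 4, 6, 8 and 10 h. HOXA4 had 1.88, 1.57, 1.21, 0.836, 0.754 and 0.882 CPM. All treated cultures lay below 0 h for both genes, on 19 to 63 counts per culture. In edgeR's quasi-likelihood test HOXA2 had an adjusted p of 0.288 in whole RNA and 0.0949 in new RNA, where it passed only without the low-count filter. HOXA4 had 0.399 and 0.461. HOXA5, next in the cluster, had 2.00, 2.04, 2.08, 2.16, 1.91 and 2.38 CPM and no order with treatment. HOXA13, at the other end, had 10.1, 10.6, 10.5, 12.3, 11.7 and 9.06 CPM.

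HOXC13 rose in new RNA. Its new RNA was 34.0, 45.3, 69.6, 79.4, 69.9 and 78.7 CPM of new counts at 0, 2, 4, 6, 8 and 10 h. Its whole RNA was 10.3, 12.6, 20.4, 25.9, 23.5 and 24.2 CPM. All treated cultures lay above 0 h in both, and the 2 h culture lay between 0 h and the rest. By edgeR's quasi-likelihood test the log2 change in new RNA was 1.08 ± 0.27, adjusted p = 0.0498, higher in 5 of 5 treated cultures. It passed with DESeq2, without the low-count filter and without the 2 h culture, and was lost without the 4, 6, 8 or 10 h culture (adjusted p 0.0668 to 0.107). In whole RNA the log2 change was 1.07 ± 0.35 with an adjusted p of 0.271 in the same test, and it passed with DESeq2 (0.0145) and without the 2 h culture (0.00165). The new share of HOXC13 ran from 64.8% to 73.1% over the cultures. The gene antisense to it, HOXC-AS5, had 1.88, 1.85, 2.25, 3.13, 2.84 and 2.94 CPM of whole RNA and was not called.

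HOXC8 fell in new RNA. Its new RNA was 19.9, 12.8, 10.6, 9.67, 8.92 and 9.80 CPM of new counts at 0, 2, 4, 6, 8 and 10 h. Its whole RNA was 9.96, 9.01, 7.20, 6.78, 6.79 and 6.24 CPM. The new RNA of each treated culture was under that at 0 h, with the gap widest from 4 h on. By edgeR's quasi-likelihood test the log2 change in new RNA was -0.88 ± 0.20, adjusted p = 0.0305, lower in 5 of 5 treated cultures. The call was lost without the 4, 6, 8 or 10 h culture (adjusted p 0.0519 to 0.0845). In whole RNA the log2 change was -0.44 ± 0.19 with an adjusted p of 0.380. The new share of HOXC8 was 41.6% at 0 h and 28.9%, 29.8%, 32.2%, 28.6% and 32.9% at 2, 4, 6, 8 and 10 h. HOXC9, next to HOXC8, had 13.9, 13.5, 14.9, 15.9, 16.4 and 14.4 CPM of whole RNA.

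A slope over the 5 treated times, which leaves out 0 h, was tested in the same way. In whole RNA 1 of 29 HOX rows had a falling slope (background 6.53%) and none a rising one (background 6.10%). HOXA6 was that gene, with 1.88, 1.84, 1.65, 1.04 and 0.710 CPM at 2, 4, 6, 8 and 10 h, and 1.49 CPM at 0 h. Its slope was -0.17 ± 0.04 log2 units per hour, adjusted p = 0.0189 in edgeR's quasi-likelihood test. It rests on 29 to 71 counts per culture and was lost without the 4 h (0.0528), 8 h (0.0676) or 10 h culture (0.185). HOXC13 had a slope of 0.10 ± 0.03 (adjusted p = 0.0567 in the same edgeR test), which passed without the low-count filter, without the 6 h and without the 10 h culture. Without the 2 h culture that slope was 0.03. In new RNA none of 26 rows passed (backgrounds 3.55% rising and 4.15% falling), with 4 at an unadjusted p under 0.05, against 21.5% of all genes, and 1 (HOXC13) by DESeq2, against 5.5%.

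**Figure D4:**
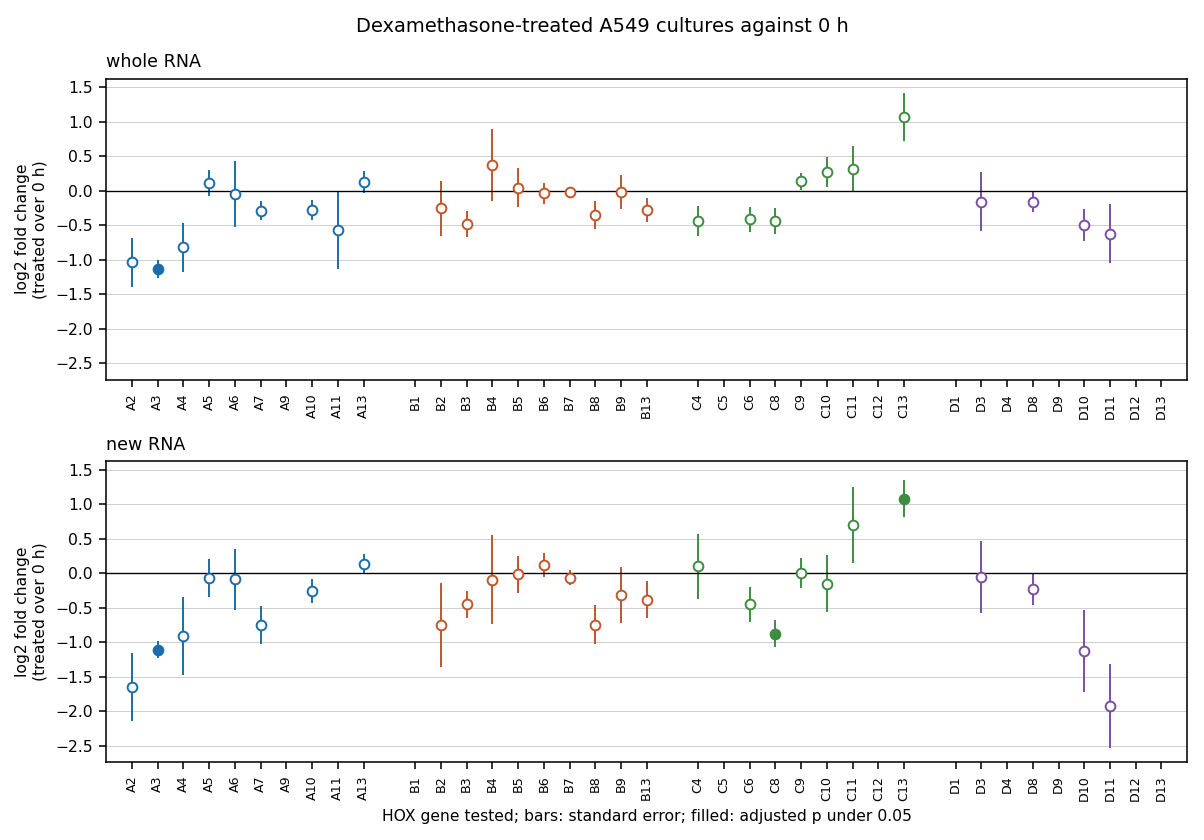
Log2 change of treated A549 cultures over 0 h for HOX rows tested, in whole RNA (top) and new RNA (bottom), from edgeR's quasi-likelihood fit. Bars are standard errors, and filled points have an adjusted p under 0.05. HOXA3 is filled in both panels at -1.13 and -1.10, and HOXC8 and HOXC13 in the new RNA panel at -0.88 and 1.08.

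**Figure D5:**
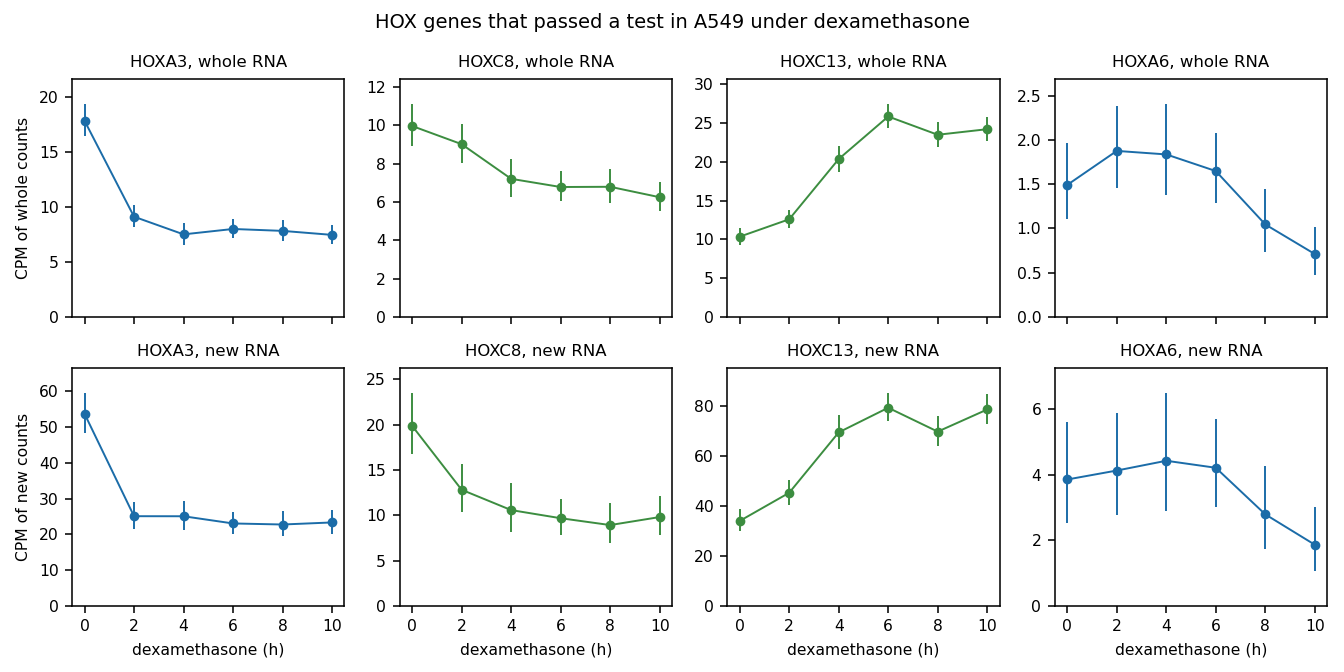
Whole RNA (top, CPM of whole counts) and new RNA (bottom, CPM of new counts) of HOXA3, HOXC8, HOXC13 and HOXA6 in A549 by hours of dexamethasone. Points are single cultures with exact 95% Poisson bars, and lines join them. HOXA3 drops between 0 and 2 h, HOXC13 is highest at 6 h, and HOXA6 is low at 8 and 10 h.

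Over the clusters of A549, HOXA had 48.6 CPM at 0 h and 36.7, 34.6, 37.3, 35.0 and 32.6 CPM at 2, 4, 6, 8 and 10 h. HOXC had 42.4 CPM at 0 h and 41.8, 49.0, 56.6, 53.8 and 52.1 CPM. HOXA was thus highest at 0 h, and HOXC was above its 0 h level from 4 h on. Single genes weigh heavily in both sums. HOXA3 had 17.9 CPM at 0 h and as little as 7.47 CPM in a treated culture. HOXC13 had 10.3 CPM at 0 h and up to 25.9 CPM in a treated culture. HOXC4 (first identifier), HOXC6 and HOXC8 were highest at 0 h, and HOXC10 was lowest there. HOXB had 74.99 to 82.3 CPM in treated cultures and 84.5 CPM at 0 h, and HOXD 5.72 to 7.08 and 8.08 CPM. These sums are levels without a test.

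Genes that work with HOX proteins or act on the clusters were tested in the same fits. Among 9 cofactor genes PBX4, which binds DNA together with HOX proteins, rose. PBX4 had 4.18, 7.73, 7.45, 9.08, 9.17 and 8.69 CPM of whole RNA at 0, 2, 4, 6, 8 and 10 h. Its log2 change was 1.04 ± 0.17 in whole RNA (adjusted p = 0.0384, edgeR's quasi-likelihood test) and 1.28 ± 0.18 in new RNA (adjusted p = 0.00324). The whole RNA call was lost without the 4, 6, 8 or 10 h culture, and the new RNA call held in all 7 alternatives.

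Of 22 polycomb genes none was called in whole RNA against 0 h. In new RNA PCGF5 rose (log2 change 0.65 ± 0.10, adjusted p = 0.00413) and PCGF2 fell (-0.62 ± 0.13, adjusted p = 0.0228) in edgeR's quasi-likelihood test, both being subunits of polycomb complex PRC1. PCGF2 lost its call without the 6 h or 8 h culture. In the slope of whole RNA CBX6 and EZH2, the methyltransferase of complex PRC2, fell and PCGF5 and RYBP rose. EZH2 had 77.1, 63.4, 64.5, 57.2 and 50.8 CPM at 2, 4, 6, 8 and 10 h (adjusted p = 0.0022 in the slope test of edgeR). The calls of PCGF5 and RYBP were lost without the 2, 4 or 8 h culture, and that of RYBP also without 6 h. EZH2 and PCGF6 fell in the slope of new RNA, calls lost without the 10 h culture for both, without 2 h for EZH2, and without 8 h and with DESeq2 for PCGF6. Of 11 trithorax genes and H3K27 demethylases none was called against 0 h. In the slope KDM6B, an H3K27 demethylase, rose in whole and new RNA in all alternatives. It had 6.89 CPM of whole RNA at 0 h and 4.14, 3.95, 5.80, 7.34 and 7.18 CPM at 2, 4, 6, 8 and 10 h. KMT2C rose in both slopes and KMT2A fell in the whole RNA slope, both H3K4 methyltransferases. KMT2C lost its call without the 8 h culture in both, and in new RNA without 2 h or 10 h, and KMT2A lost it without 2, 4, 8 or 10 h.

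Of 10 retinoic acid genes none was called in whole RNA against 0 h, and RARG, a retinoic acid receptor, was the 1 that fell in new RNA. It had 36.5, 14.9, 14.8, 14.4, 13.4 and 16.0 CPM of new counts at 0, 2, 4, 6, 8 and 10 h, with a log2 change of -1.24 ± 0.14 (adjusted p = 0.00096, edgeR's quasi-likelihood test) that held in all 7 alternatives. RARB rose in both slopes, with 31.0, 31.7, 38.4, 44.7 and 45.0 CPM of whole RNA at 2, 4, 6, 8 and 10 h and 36.9 at 0 h. ALDH1A1, which makes retinoic acid and is abundant in A549 at 6728 CPM, rose in the slope of new RNA, a call lost without the 10 h culture. Of 11 homeobox genes outside the clusters 4 could be tested in whole RNA, with 2 of them also in new RNA, and MNX1, a motor neuron and pancreas gene, fell in both slopes. It had 8.96, 8.00, 6.61, 5.69 and 4.70 CPM of whole RNA at 2, 4, 6, 8 and 10 h, against 11.8 at 0 h. Its new RNA call was lost without the 8 h or 10 h culture. How these genes relate to the HOX values was not tested. Of the 5 leukocyte and endothelial markers, 2 could be tested in whole RNA and neither was called. The marker lists of the lines also moved in these fits. Against 0 h the A549 marker GDF15, 1 of 15, fell in whole RNA (background 0.275%). In new RNA KRT8, KRT18 and KRT7 rose (background 3.82%) and GDF15, AKR1B10 and NQO1 fell (background 2.18%), 6 of 15. In the whole RNA slope 5 of 15 A549 markers rose (background 6.10%) and 6 fell (background 6.53%). LHX1 and ZIC2, of the HEK293T list, fell against 0 h in whole RNA (2 of 11 tested, background 0.275%). They also fell in new RNA (2 of 8, background 2.18%). The part of these markers in the HOX values was not tested.

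The levels of the cofactors differed between the lines. PBX3 had 78.1 CPM in A549 and 222 CPM in HEK293T, MEIS2 47.96 and 130, and MEIS3 24.7 and 8.06. PKNOX1 had 16.2 CPM in A549 and 50.8 CPM in HEK293T, and PKNOX2 0.536 and 45.2. PBX4 had 7.82 CPM in A549 and 12.3 CPM in HEK293T, MEIS1 6.90 and 41.1, and PBX2 6.74 and 20.2. Of these, MEIS3 alone was higher in A549. In NIH/3T3 Pbx3 had 99.5 CPM, Meis2 49.6, Meis1 37.5, Pknox1 31.4, Pbx2 17.6, Meis3 11.1 and Pbx4 1.29.

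Noncoding RNAs of the clusters were also lower in A549 for most members. HOTAIRM1, of the HOXA cluster, had 5.91 CPM in A549, 24.1 CPM in HEK293T and 3.65 CPM in NIH/3T3. HOTAIR, a HOXC transcript antisense to HOXC11, had 0.217 CPM in A549 and 7.95 CPM in HEK293T. HOXA11-AS, added to the list later, had 0.157 CPM in A549 and 15.9 CPM in HEK293T. HOXA-AS2 had 3.59 and 7.12 CPM in these lines, HOXA-AS3 0.651 and 12.6, HOXA-AS4 0.490 and 10.1, and HOXB-AS3 1.298 and 9.33. HOXB-AS1 had 1.86 CPM in A549 and 1.88 CPM in HEK293T, and HOXC-AS5, opposite HOXC13, 2.53 and 1.52. HOXD-AS1 had 2.31 CPM in A549 and 3.91 CPM in HEK293T, HOXD-AS2 2.87 and 6.11, HOXC-AS1 0.647 and 1.55, HOXC-AS2 0.268 and 1.48, and HOXC-AS3 0.222 and 0.868. HOTTIP had 40 counts in A549 and 17 in HEK293T, HOXB-AS4 36 and 3, and HOXB-AS2 17 and 5. These are raw counts, from totals of 216513736 in A549 and 27656301 in HEK293T, so a larger count in A549 is not a higher level. HOXC-AS5 and HOXC13, which lie on opposite strands of the same place, were thus both higher in A549. No cluster noncoding RNA other than HOXA-AS2 was called in the A549 tests, where 6 to 13 of 16 could be tested.

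Genes that flank the clusters did not share the HOX difference between lines. SKAP2 and HIBADH, beside HOXA, had 86.4 and 88.1 CPM in A549 and 137.7 and 111.2 CPM in HEK293T. MTX2 and KIAA1715, beside HOXD, had 69.8 and 77.1 CPM in A549 and 94.5 and 96.3 CPM in HEK293T. CBX5, HNRNPA1 and SMUG1, near HOXC, had 293, 729 and 20.2 CPM in A549 and 242, 1346 and 19.0 CPM in HEK293T. SKAP1, beside HOXB, had 2.13 CPM in A549 and 1.81 CPM in HEK293T. All of these lay within 4-fold, while the homeobox genes EVX1 and EVX2 at the cluster ends and PRAC1 had at most 8 counts in either line. Under dexamethasone CBX5 fell in both slopes and SKAP2 rose in that of new RNA. The CBX5 call in whole RNA was lost without the 10 h culture, and in new RNA it held in 3 of 7 alternatives, lost with DESeq2 and without 4, 8 or 10 h. The SKAP2 call held in 2 of 7, lost with DESeq2 and without 2, 4, 8 or 10 h.

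The labelling groups of the mixture give the spread of HOX levels over cultures of 1 line. In HEK293T 19 of 33 HOX rows with at least 10 counts in every culture were lower in both cultures with S4U than in both without (background 27.7%). Higher in both were 2 of 33, HOXB13 and HOXD9 (background 29.4%). The median log2 ratio of S4U over no S4U was -0.20 over these members, against 0.02 over all genes. HOXA5 had 40.7 and 63.7 CPM in cultures with S4U and 84.9 and 78.4 CPM in those without, a ratio of 0.639. HOXA10 had 66.0 and 66.9 CPM with S4U, against 101 and 94.6 CPM without. HOXA9 had a ratio of 0.998 and its cultures overlapped. In HEK293T the cultures with iodoacetamide were higher than both without for 3 rows (background 8.99%) and lower for 6 (background 18.7%). In NIH/3T3 Hoxa7 and Hoxd9, 2 of 13 members, were lower in both cultures with S4U (background 19.7%). Higher in both were 3 of 13, Hoxb3, Hoxb6 and Hoxc6, against 2777 of 10290 genes. Hoxb3 had 7.13 and 5.02 CPM with S4U and 3.70 and 2.63 CPM without. Hoxb6 had 16.2 and 17.0 CPM with S4U, against 11.6 and 12.4 CPM without, and Hoxc6 17.5 and 19.5 CPM against 10.9 and 11.6 CPM. With iodoacetamide none of 13 was higher (background 5.21%) and 5 were lower (background 33.0%). The median log2 ratio with S4U was -0.01 over the 13 mouse members, against 0.03 over all mouse genes.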

How the data were processed

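Raw counts per gene and cell, for whole RNA and for RNA called newly synthesised, were used as the authors deposited them. Also as the authors deposited them, text columns gave gene types, species calls, labelling groups and times. Per the submitters' processing notes, the builds were hg19 and mm10 and the tools STAR 2.5.2b, Picard 1.105, Trim Galore 0.4.1 and SAMtools 1.3. How new RNA was called, how duplicates were collapsed and whether strand was used stand in none of the sources used here. The share of mutated reads and the doublet score of each cell, also as the authors deposited them, were not used, and no cell was removed as a doublet.

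Counts were summed per gene over the cells of each culture. Of 6307 mixture cells, 166 called mixed and 100 without a labelling group were left out. Human exonic lengths came from GENCODE v29. HOX members of fewer than 20 counts were not given a new share. edgeR 4.0.16 in R 4.3.3 (TMM, filterByExpr with a minimum count of 10, quasi-likelihood test, Benjamini-Hochberg adjustment at 0.05) compared 5 treated A549 cultures with 0 h and fitted a slope over the treated times. Such p-values rest on the spread between single cultures, which may be technical. Against 0 h that spread comes from treated cultures of different times, so it includes change with time. Alternatives were DESeq2 1.42.0, no filter, and each treated culture left out. All alternatives of the test against 0 h kept the lone 0 h culture. Python 3.11.15, numpy 2.4.6, pandas 2.3.3, scipy 1.17.1 and matplotlib 3.10.9 did the rest. Members are named, and other genes are named where a list gene passed a test or its level is given, except that some values and sequences are not reported here. The members and lists were chosen with earlier results of these data known, and HOXA11-AS was added later still.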

Additional observations from a re-analysis of the deposited data

Results flagged for a closer look

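Among the treated A549 cultures, 3 of 59 series of HOX values had 1 culture far from the other 4 by Dixon's test, and chance flags about 1 in 20. HOXC13 had 45.3 CPM of new counts at 2 h, against 69.6 to 79.4 in the others. HOXA10 had 9.72 CPM of new counts at 4 h, against 10.5 to 10.8. HOXC9 had 19.6 CPM of new counts at 4 h, against 13.7 to 14.7.

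For 3 genes every culture with S4U lay on one side of those without in HEK293T and on the other side in NIH/3T3. The difference between the lines was not tested. At least 10 counts in every culture were found for 33 HOX rows in HEK293T and 13 in NIH/3T3. How many of all gene pairs went opposite ways was not counted, so the 3 genes have no background. Within each line, cultures with and without S4U did not overlap, in either direction, for 57.1% of all genes in HEK293T and 46.6% in NIH/3T3. The ratio of S4U over no S4U was 0.897 for HOXB6 in HEK293T and 1.39 for Hoxb6 in NIH/3T3. It was 0.760 for HOXC6 and 1.65 for Hoxc6. It was 1.22 for HOXD9 and 0.724 for Hoxd9.

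Some members had counts in cells of the other species. In mouse cells HOXA5 had 26 counts and HOXD11 7. In human cells Hoxa5 had 6 counts, Hoxa3 5, Hoxb3 4 and Hoxa10 4, the last with no count in NIH/3T3 cells.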

How the results depend on the processing

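No HOX row that passed a test changed direction under an alternative. HOXA6, which did not pass against 0 h, had a log2 change of -0.05 in whole RNA and -0.09 in new RNA. Without the 10 h culture these were 0.12 and 0.08, and without 8 h the whole RNA value was 0.04. For treated cultures against 0 h in whole RNA, HOX calls numbered 1 of 30 rows. There were 2 in DESeq2 and 1 to 3 when a treated culture was left out. Calls over all genes numbered 201 there (0.878% of genes tested), with 786 in DESeq2 (3.43%). They were 451 without the low-count filter (1.04%) and 75 to 1600 with a culture left out (0.33% to 7.03%). In new RNA the HOX calls were 3 of 29, with 4 of 39 (HOXA2 added) without the filter and 1 to 3 when a culture was left out. All calls numbered 1050 (6% of genes), with 1152 in DESeq2 (6.58%) and 1500 without the filter (4.12%). With a culture left out they were 629 to 2022 (3.64% to 11.6%). For the slope in whole RNA the HOX calls were 1 of 29, with 2 of 40 without the filter and 0 to 2 with a culture left out. All calls there numbered 2715 (12.6% of genes), with 2672 in DESeq2 (12.4%) and 3037 without the filter (7.15%). With a culture left out they were 1414 to 2569 (6.57% to 12.2%). For the slope in new RNA the HOX calls were 0 of 26. There was 1 in DESeq2, 1 of 39 without the filter and 0 to 1 with a culture left out. All calls there numbered 1261 (7.7% of genes), with 900 in DESeq2 (5.5%) and 1712 without the filter (4.8%). With a culture left out they were 506 to 1164 (3.12% to 7.25%). The cause of these shifts was not tested.

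Over protein-coding counts alone, HOX totals were 178.9 CPM in A549, 1077 in HEK293T and 421 in NIH/3T3. Clusters A, B and C were then 38.7, 81.9 and 51.4 CPM in A549. Clusters A to D were 424, 239.6, 152 and 262 CPM in HEK293T and 281, 51.4, 25.4 and 62.7 CPM in NIH/3T3. In the 0 h culture of A549 the total was 183.6 CPM and clusters A to D 48.6, 84.5, 42.4 and 8.08 CPM. In fully labelled HEK293T cells the total was 867 CPM and clusters A to D 313, 200.5, 126 and 228 CPM. In fully labelled NIH/3T3 cells the total was 284 CPM and clusters A, C and D 182, 21.7 and 40.2 CPM. With a minimum of 50 counts the median new share was 48.5% in A549, 76.2% in HEK293T and 50.0% in NIH/3T3. With the background subtracted it was 75.1% in HEK293T and 46.2% in NIH/3T3.

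No paired analysis was possible because each time and each labelling group had 1 culture. With 1 culture at 0 h and 1 library per line, neither an effect of that culture nor of a library can be separated from treatment or line. Members under 20 counts, and HOX genes that overlap another on either strand, have the least certain values.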
